A study of Homo sapiens with 14 samples.

Results

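Immediate early response genes are a set of 10 genes, EGR1, EGR2, EGR3, FOS, FOSB, JUN, JUNB, IER2, DUSP1 and NR4A1, chosen by name from the 55075 genes in the deposited tables. All 10 were found, and all 10 had counts in every column. They were followed in human T cell acute lymphoblastic leukemia (T-ALL) cells in which 1 of 2 histone H3 lysine 27 demethylases had been knocked down. JMJD3 (gene KDM6B) and UTX (gene KDM6A) both remove methyl groups laid down by Polycomb complexes, and the title of the series contrasts the roles of both in T-ALL.

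RNA was sequenced from 14 samples of the established T-ALL lines CUTLL1, which carries a rearranged NOTCH1 gene, and CEM. Cells carried a short hairpin against JMJD3 (shJMJD3), against UTX (shUTX) or against Renilla luciferase (shRenilla), the control, which has no target among human genes. The CUTLL1 groups held 3 shJMJD3, 2 shUTX and 3 shRenilla samples, and each CEM group held 2. Hairpins were delivered by retrovirus, in the controls too, so all groups were infected. The labels do not say how many hairpins were used per target, and effects of a hairpin on other genes cannot be told apart from loss of its target. The deposited tables give 1 count per gene, hairpin and line, so there is no replicate spread within a line and no test within a line.

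Immediate early genes are the first genes transcribed after a growth factor, antigen receptor, stress or serum stimulus, and their induction needs no new protein. Signals through the ERK and p38 kinases reach SRF with its ETS partners, CREB and MEF2 at their promoters. Most encode short-lived transcription factors, and their messenger RNAs decay within minutes to hours. In T cells EGR and AP-1 factors act downstream of the T cell receptor, and NR4A1 (Nur77) is widely used as a reporter of that signal. The same genes also respond to cell handling, such as dissociation or a change of medium.

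The 250 bases before the start of transcription are shown for the 5 members on which the results below turn most, because they differ in the elements that these signals use. Capitals mark the SRF-binding CArG box and the letters TGACG on either strand (CGTCA on the printed strand), the core of the CREB and ATF site. Sequences are from RefSeq on GRCh38.p14, which is not the build of the deposited counts.
EGR1 promoter, chr5:138465229-138465478, plus strand: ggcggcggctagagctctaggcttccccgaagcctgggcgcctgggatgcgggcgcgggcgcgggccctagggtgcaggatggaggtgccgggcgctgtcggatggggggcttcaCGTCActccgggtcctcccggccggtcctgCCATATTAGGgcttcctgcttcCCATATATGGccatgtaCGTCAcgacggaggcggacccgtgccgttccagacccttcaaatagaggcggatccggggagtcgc
EGR2 promoter, chr10:62816367-62816616, minus strand: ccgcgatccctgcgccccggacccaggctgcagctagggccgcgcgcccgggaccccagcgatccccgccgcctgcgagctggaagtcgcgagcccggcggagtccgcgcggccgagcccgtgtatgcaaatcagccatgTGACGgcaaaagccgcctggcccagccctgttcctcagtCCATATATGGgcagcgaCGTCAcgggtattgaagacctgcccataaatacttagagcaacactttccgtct
FOS promoter, chr14:75278578-75278827, plus strand: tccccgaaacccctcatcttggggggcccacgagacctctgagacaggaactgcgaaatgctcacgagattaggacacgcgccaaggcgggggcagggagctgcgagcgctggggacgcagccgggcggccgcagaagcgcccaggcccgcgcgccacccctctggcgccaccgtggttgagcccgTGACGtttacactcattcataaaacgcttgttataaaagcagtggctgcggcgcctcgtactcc
JUN promoter, chr1:58784048-58784297, minus strand: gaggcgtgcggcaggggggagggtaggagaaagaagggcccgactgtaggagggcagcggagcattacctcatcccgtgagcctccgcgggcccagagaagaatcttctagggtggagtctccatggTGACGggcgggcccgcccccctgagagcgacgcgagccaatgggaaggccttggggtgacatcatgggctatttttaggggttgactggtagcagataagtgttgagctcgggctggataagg
DUSP1 promoter, chr5:172771196-172771445, minus strand: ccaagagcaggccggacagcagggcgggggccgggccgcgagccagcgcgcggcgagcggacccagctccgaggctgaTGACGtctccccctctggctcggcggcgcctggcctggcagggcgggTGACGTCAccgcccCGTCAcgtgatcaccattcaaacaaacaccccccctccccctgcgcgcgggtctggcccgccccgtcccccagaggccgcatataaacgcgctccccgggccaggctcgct

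Of the 10 members, 9 had a promoter in the RefSeq table used, EGR3 being the exception. A CArG box was found in 2 of the 9, against 1.44% of 27305 genes with such a window, counting a gene once if any of its annotated starts held the motif. EGR1 held 2 of them, at positions -105 to -96 and -83 to -74 counted back from the start, and 1 of the 3 annotated EGR2 starts held 1, at -71 to -62. TGACG was found in 8 of 9 members, NR4A1 being the exception, against 24.9% of all genes. The full palindrome TGACGTCA, which contains TGACG on both strands, was found in DUSP1 alone among the members and in 2.03% of all genes. An EGR site, GCGNGGGCG, was found in EGR1 and in 10.1% of all genes. An AP-1 site, TGANTCA, was found in 0 of 9 members and in 8.06% of all genes. A match describes these letters in this window and no more, and elements farther upstream were not searched.

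Column totals were between 70280185 and 258014046 counts. The CUTLL1 shRenilla column had 258014046 counts in the table with shJMJD3 (the larger control column) and 144394369 in the table with shUTX (the smaller), and the larger was at or above the smaller in all 55075 genes. The remainder after subtraction held 113619677 counts and 18.7% small non-coding RNA, against 1.97% in the smaller column, 11.7% in CUTLL1 shJMJD3 and at most 0.0486% in CEM. T cell markers were abundant, with CD3D at 507 CPM (the count of a gene scaled to the column total) or more in each full column. The B cell gene MS4A1 had 0 counts throughout, but other B cell markers were present. The 8 B cell markers summed to 272 CPM in the larger CUTLL1 control column, of which CR2 held 271. In CEM shRenilla they summed to 106 CPM, with CD79A highest at 74.7. The targeted gene was lower with its hairpin in each line. KDM6B stood at 10.9 CPM with shJMJD3 against 18.8 in CUTLL1 (TMM-scaled log2 ratio -0.63) and at 52.2 against 206 in CEM (-1.67). KDM6A stood at 19.3 CPM with shUTX against 43.0 in CUTLL1 (-1.12) and at 51.5 against 136 in CEM (-1.37). The demethylase not targeted moved in 1 line for each hairpin. KDM6A stood at 86.7 CPM with shJMJD3 against 136 in CEM (-0.34), but at 0.01 in CUTLL1. KDM6B stood at 28.2 CPM with shUTX against 21.5 in CUTLL1 (0.43), but at -0.02 in CEM.

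Levels of different genes were compared as CPM per kilobase of exon. In the larger CUTLL1 control column JUNB, an AP-1 subunit of the JUN family, was highest at 30.5 per kilobase. IER2, a nuclear immediate early protein, followed at 9.46, and DUSP1 (6.52), EGR1 (6.10), JUN (5.29) and FOS (4.99) lay close together below it. NR4A1 (1.05), FOSB (0.422), EGR2 (0.210) and EGR3 (0.162) were lowest. In CEM shRenilla JUN led at 27.5, followed by IER2 (24.0), JUNB (21.2) and EGR1 (16.0), while FOS stood at 0.658. EGR3 (0.132) and EGR2 (0.127) closed the CEM order and rested on 67 and 49 counts. With shUTX in CEM EGR1 stood at the head of the order at 28.1, with JUNB (24.9), JUN (24.6) and IER2 (24.0) close behind, and with shJMJD3 it stood at 8.13, after JUN (37.3), IER2 (21.6) and JUNB (13.5). In CUTLL1 JUNB led in every column, and EGR1 came next to it with shUTX, at 17.1 against 41.0 for JUNB and 16.8 for IER2. With no replicates, only counting error separates neighbours in these orders. In bulk RNA, fewer cells expressing a gene and less RNA of it per cell cannot be told apart.

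**Figure D1:**
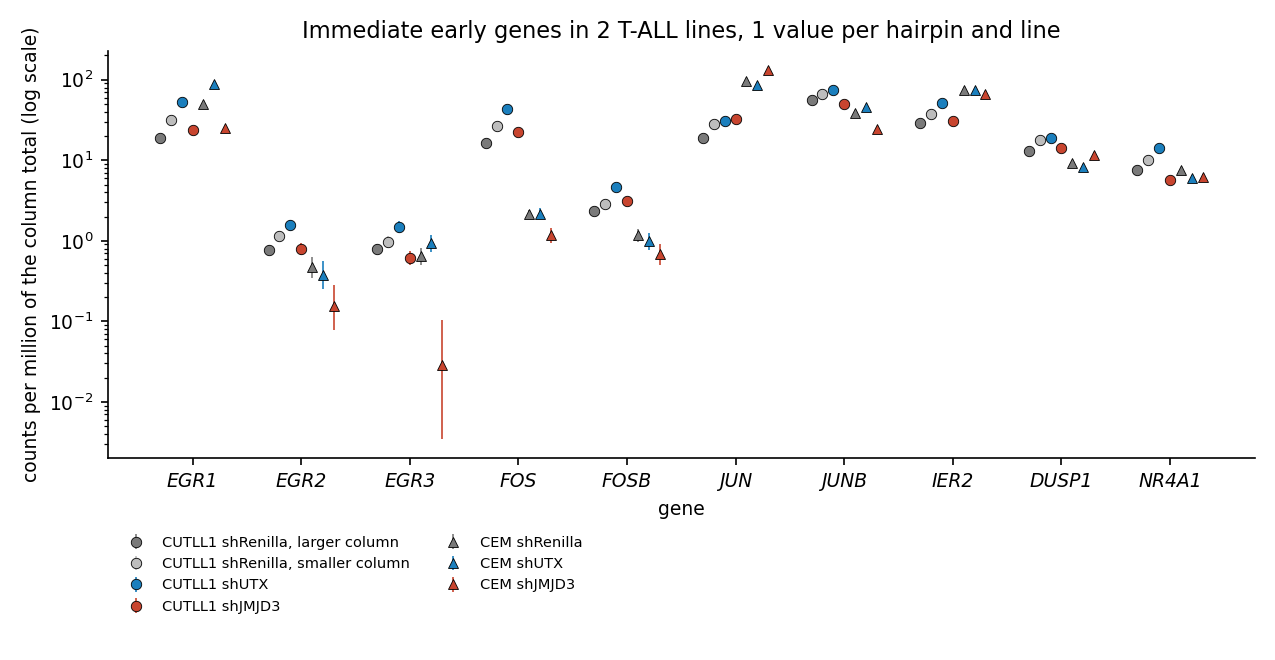
CPM (log axis) of the 10 genes in each deposited column, circles for CUTLL1 and triangles for CEM, with 1 value per hairpin and line and bars for the exact 95% counting interval. FOS lies at 16.2 or more in the CUTLL1 columns shown and at 2.17 or less in CEM, JUN is the reverse, and EGR3 lies at 0.0285 in CEM shJMJD3.

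FOS, the AP-1 subunit that pairs with JUN proteins, showed the largest fitted difference between the lines among the members. It stood at 16.2 CPM with shRenilla (larger column), 43.0 with shUTX and 22.2 with shJMJD3 in CUTLL1, and at 2.13, 2.17 and 1.18 in CEM. Every CUTLL1 column was above every CEM column. Over the 3 hairpins the log2 ratio of CUTLL1 to CEM was 4.13 (SE 0.37, adjusted p = 0.00314 in edgeR's quasi-likelihood test). Here the hairpins stand in for replicates and the spread is that between pooled columns. In the remainder of the CUTLL1 control FOS was at 2.90 CPM, near the CEM level.

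FOSB, another FOS family member, was higher in CUTLL1 by a log2 ratio of 2.11 (SE 0.40, adjusted p = 0.0185, edgeR). It stood at 2.34, 4.60 and 3.14 CPM with shRenilla, shUTX and shJMJD3 in CUTLL1 and at 1.17, 0.988 and 0.683 in CEM. JUNB was higher in CUTLL1 by 1.06 (SE 0.16, adjusted p = 0.0103, edgeR), with 55.5, 74.6 and 50.0 CPM against 38.6, 45.4 and 24.5. For both genes these columns of the 2 lines did not overlap. In the remainder of the CUTLL1 control FOSB was at 1.69 CPM, above the CEM columns. JUNB was at 41.4 there, below CEM shUTX. The share of all genes without overlap, which also bears on FOS, was not computed.

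JUN, the founding AP-1 subunit, differed the other way. It stood at 18.7 CPM with shRenilla, 31.0 with shUTX and 32.6 with shJMJD3 in CUTLL1, and at 97.4, 87.0 and 132 in CEM. The log2 ratio of CUTLL1 to CEM was -1.66 (SE 0.21, adjusted p = 0.00722, edgeR). CEM therefore had more JUN and less FOS, FOSB and JUNB than CUTLL1 in each hairpin's pair of columns.

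EGR2, a zinc finger factor of the EGR family, was higher in CUTLL1, at 0.775, 1.56 and 0.786 CPM against 0.470, 0.381 and 0.157 with the same order of hairpins. Its log2 ratio was 1.98 (SE 0.48, adjusted p = 0.0332, edgeR). DUSP1, the phosphatase that switches off p38, JNK and ERK, was higher by 0.98 (SE 0.28, adjusted p = 0.0479, edgeR), at 13.2, 19.1 and 14.1 CPM against 9.18, 8.19 and 11.6. Both calls were lost when counts were scaled to column totals (EGR2 1.67, adjusted p = 0.0511, and DUSP1 0.67, adjusted p = 0.117, edgeR). The DUSP1 call was also lost without a count filter (0.93, adjusted p = 0.0560, edgeR). In the remainder of the CUTLL1 control EGR2 was at 0.299 CPM, below CEM shRenilla and CEM shUTX. DUSP1 was at 7.12 CPM there, below every CEM column.

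In all, 5 members were called higher and 1 lower in CUTLL1, beside 19% and 17.8% of the 24003 genes tested. Their median log2 ratio was 1.02, and that of all genes tested 0.11. IER2 (-0.68, adjusted p = 0.0555), EGR1 (-0.43, 0.241), NR4A1 (0.68, 0.201) and EGR3 (1.69, 0.167) did not pass. IER2 passed on the lower side with counts scaled to column totals (-0.99), with RLE size factors in edgeR (-0.69), in DESeq2 (-0.69) and without a count filter (-0.73). The protein-coding share of counts was 66.9% to 81.8% in the CUTLL1 columns and 93.0% to 94.1% in CEM. Histone genes took 4.50% to 5.98% of the counts in these CUTLL1 columns and 0.0191% to 0.0307% in CEM. The part of such library content in the difference between lines was not tested. Library content and line cannot be told apart here, for the called members too.

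**Figure D2:**
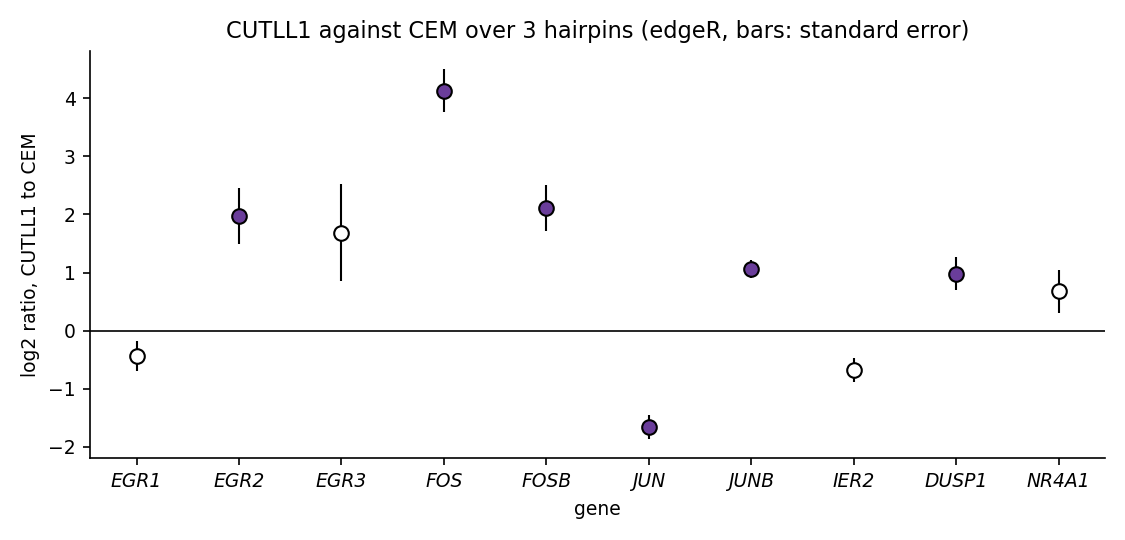
The log2 ratio of CUTLL1 to CEM for each gene, fitted over the 3 hairpins in edgeR, with bars for the standard error; filled points have an adjusted p under 0.05. FOS stands farthest above 0 at 4.13 and JUN farthest below at -1.66.

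Other genes of the response are given by list for the same comparison of lines. Of the 24003 genes tested 19% were higher and 17.8% lower in CUTLL1. Of 15 further immediate early transcription factors 14 were tested, of which 1 was higher and 7 lower in CUTLL1, with a median of -1.28. Of 25 feedback inhibitors and other rapid response genes 6 were higher and 10 lower, with a median of -0.20. Among 32 kinases and SRF, ETS, CREB and MEF2 factors upstream of the members, 1 was higher and 7 lower, with a median of -0.16. Of 12 tested EGR, NAB and NFAT linked T cell genes 3 were higher and 2 lower, with a median of 0.43.

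Set against shRenilla, shUTX shows how the members stood with the hairpin against UTX. In CUTLL1 all 10 members stood above the smaller control column, the one the authors paired with shUTX, and each counting interval lay above 0. The share of all genes with an interval above 0 was not computed. The members' log2 ratios ran from 0.14 for DUSP1 to 0.81 for EGR1, with a median of 0.52 beside -0.01 for all genes. None reached 2-fold, beside 0.693% of 16886 genes at least 2-fold higher and 0.255% lower. At 1.5-fold 4 members were higher and 0 lower, beside 3.5% and 2.27% of all genes. In CEM the members did not stand together: 5 of the 9 with at least 50 counts in a column were above 0 and 4 below, with a median of 0.04. There 0 reached 2-fold, beside 0.804% of 16791 genes higher and 1.23% lower, and at 1.5-fold 1 was higher and 0 lower, beside 3.32% and 4.05%.

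EGR1, the zinc finger factor induced by ERK signalling, had the highest ratio to its paired control with shUTX in both lines. In CUTLL1 it stood at 53.6 CPM with shUTX and 31.4 with shRenilla, from 5453 and 4532 counts. In CEM it stood at 88.3 and 50.1 CPM, from 6257 and 5219 counts. The log2 ratios were 0.81 (95% counting interval 0.76 to 0.87) and 0.85 (0.80 to 0.91), and the CUTLL1 ratio was 1.45 against the larger control column.

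Across lines the fitted EGR1 ratio was 0.84 (SE 0.25). It did not pass in edgeR's quasi-likelihood test over all 6 columns (adjusted p = 1), nor in DESeq2 (0.85, adjusted p = 1), and was 1 of 39 genes with an unadjusted p under 0.05 in edgeR. It passed only where the spread was taken from the 4 columns compared (0.83, SE 0.10, adjusted p = 0.00825, edgeR). The spread over all 6 columns also takes in the shJMJD3 columns. No gene of 23112 passed over all 6 columns, so 0% were called. DESeq2 called 4 genes, none of them a member.

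EGR3, also of the EGR family, had 1.48 CPM with shUTX against 0.976 in CUTLL1 and 0.932 against 0.643 in CEM. Its log2 ratios of 0.64 (0.30 to 0.99) and 0.55 (0.06 to 1.08) rest on 66 to 151 counts per column. JUNB was slightly above its control in both lines, by 0.21 (0.16 to 0.25) and 0.27 (0.20 to 0.34). These 3 genes were the members whose counting intervals lay above 0 in both lines.

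Other members were above their control in CUTLL1 and not in CEM. FOS had 43.0 CPM with shUTX against 26.6 in CUTLL1, a log2 ratio of 0.73 (0.67 to 0.80), and 2.17 against 2.13 in CEM, a ratio of 0.06 (-0.24 to 0.37). FOSB followed with 0.72 (0.53 to 0.92) and -0.20 (-0.65 to 0.23). NR4A1 had 14.4 against 10.2 CPM in CUTLL1, a ratio of 0.54 (0.44 to 0.65), and 6 against 7.56 in CEM, a ratio of -0.30 (-0.47 to -0.13). IER2 had 0.49 (0.44 to 0.55) in CUTLL1 and 0.04 (-0.01 to 0.09) in CEM. Whether the lines differ in these ratios cannot be tested with 1 value each.

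**Figure D3:**
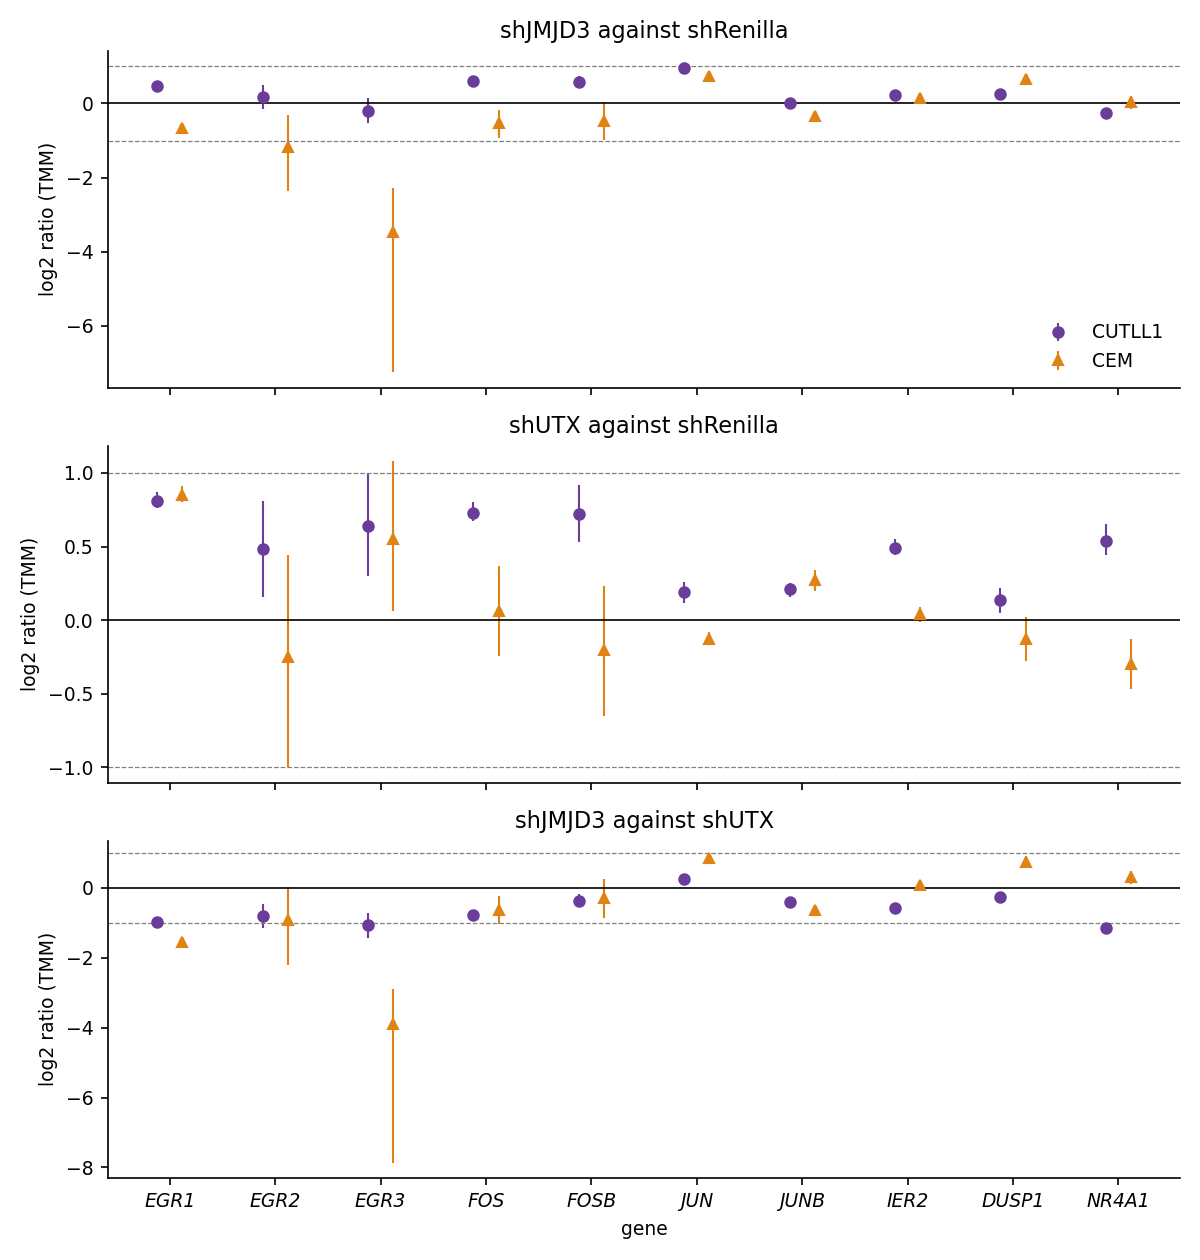
TMM-scaled log2 ratios of the 10 genes for 3 pairs of hairpins, circles for CUTLL1 and triangles for CEM, with bars for the 95% counting interval, a line at 0 and dashed lines at 2-fold. With shUTX all CUTLL1 points lie above 0, and with shJMJD3 the JUN points lie above 0 in both lines while EGR3 in CEM lies far below.

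Set against shRenilla, shJMJD3 shows how the members stood with the hairpin against JMJD3. JUN was the member that stood farthest above its control in each line. In CUTLL1 it had 32.6 CPM with shJMJD3 and 18.7 in the larger control column, from 5685 and 4832 counts. In CEM it had 132 and 97.4 CPM, from 9286 and 10144 counts. The log2 ratios were 0.95 (0.90 to 1.01) and 0.75 (0.71 to 0.79), or 0.80 and 0.44 with counts scaled to column totals.

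Across lines the fitted JUN ratio was 0.84 (SE 0.25, adjusted p = 0.8 in edgeR, and 0.377 in DESeq2). Higher in both lines, it did not pass the adjustment over all genes in any of the 7 fits. No gene of 24003 passed in edgeR over the 6 columns, with 936 at an unadjusted p under 0.05, so 0% were called. DESeq2 called 110 genes, none of them a member. DUSP1 was also above its control in both lines, with 14.1 against 13.2 CPM in CUTLL1 (ratio 0.26, 0.18 to 0.33) and 11.6 against 9.18 in CEM (0.65, 0.52 to 0.79). Against the smaller CUTLL1 control column the DUSP1 ratio was 0.04 (-0.04 to 0.12).

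None of the 10 members was 2-fold apart in CUTLL1, beside 3.78% of 19772 genes higher and 2.27% lower. At 1.5-fold 2 were higher and 0 lower, beside 8.63% and 7.23%. The members' median was 0.24, beside -0.00 for all genes. In CEM 0 were higher and 1 lower, EGR3, beside 11.8% and 13.4% of 16998 genes, and the median was -0.34, beside -0.02. At 1.5-fold 2 were higher and 2 lower in CEM, beside 22.4% and 23.9% of all genes.

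EGR3 had 67 counts in CEM shRenilla (0.643 CPM), 66 in CEM shUTX (0.932) and 2 in CEM shJMJD3 (0.0285). The CEM shJMJD3 column thus stood apart from the other 2. The log2 ratio to shRenilla was -3.47 with a prior count of 2, with a counting interval of -7.26 to -2.28, and it moved to -3.97 and -2.86 with prior counts of 0.5 and 5. In CUTLL1 EGR3 had 0.620 CPM with shJMJD3 and 0.787 in the control, a ratio of -0.19 (-0.54 to 0.15). Across lines its ratio of -1.43 had an SE of 1.01 (adjusted p = 0.8, edgeR). EGR2 likewise had 11 counts in CEM shJMJD3 and 49 in CEM shRenilla, below the minimum of 50, with an interval of -2.37 to -0.31.

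EGR1 and FOS stood on opposite sides of 0 in the 2 lines. EGR1 had 24.0 CPM with shJMJD3 against 19.1 in CUTLL1, a log2 ratio of 0.48 (0.42 to 0.54), and 25.5 against 50.1 in CEM, a ratio of -0.66 (-0.74 to -0.58). FOS had 22.2 against 16.2 in CUTLL1, a ratio of 0.61 (0.54 to 0.67), and 1.18 against 2.13 in CEM, a ratio of -0.53 (-0.92 to -0.17). In CUTLL1 the side of EGR1 and the size of the FOS ratio depended on the control column, as given below. The remaining members lay between -0.46 and 0.57, and the CEM ratios of IER2 (0.16) and NR4A1 (0.03) changed sign with counts scaled to column totals, to -0.15 and -0.28.

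Stress genes were higher in the same CEM column. Of 11 heat shock and handling stress genes, 9 were at least 2-fold higher with shJMJD3 in CEM and 0 lower, beside 11.8% and 13.4% of all genes. Their median was 1.96. HSPA1A, the inducible chaperone HSP70, stood at 427 CPM against 9.69. The summed level of the list was 6253 CPM in CEM shJMJD3, 1898 in CEM shRenilla and 1544 in CEM shUTX, and its part in the CEM ratios of the members was not tested. In CUTLL1 0 of the 11 were 2-fold apart with shJMJD3 against the larger control column, with a median of 0.09. Of all genes 3.78% were higher and 2.27% lower there. Against the smaller column 3 of the 11 were higher, HSPA1A, HSPD1 and HSPA8, with a median of 0.63, and against the remainder 1 was higher and 3 lower, with a median of -0.41. The shares of all genes against the smaller column and the remainder were not computed.

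Markers of other blood cells were also looked at in that column. Summed myeloid markers stood at 22.9 CPM in CEM shJMJD3, 5.75 in CEM shRenilla and 6.59 in CEM shUTX. CD68, a lysosomal protein of macrophages, stood at 16.4 against 5.39 CPM with shRenilla and the myeloid integrin ITGAM at 6.33 against 0.125, while LYZ stood at 0.0427 or less in all columns. Summed B cell markers were at 103, 106 and 92.2 CPM with MS4A1 at 0, summed T cell markers at 4089, 5028 and 4863, and summed NK cell markers at 27.7, 29.5 and 14.2. Fibroblast markers summed to at most 1.76 CPM in CEM and erythroid markers to at most 18.8. The part of these markers in the CEM ratios of the members was not tested.

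The direct comparison of shJMJD3 with shUTX divides by no control column. The larger CUTLL1 control column and the CEM one still entered the TMM factors and the spread of the test across lines. In CUTLL1 9 of 10 members were lower with shJMJD3, the exception being JUN, and all 10 intervals lay clear of 0. The share of all genes with an interval clear of 0 was not computed. The members' median was -0.67, beside -0.12 for all genes. Small non-coding RNA took 11.7% of the counts with shJMJD3 and 2.58% with shUTX in CUTLL1. Of the 11 heat shock and handling stress genes 3 were at least 2-fold higher with shJMJD3 there and 0 lower, HSPA1A (3.16), HSPD1 (1.66) and HSPA8 (1.56). The part of either in the ratios of the members was not tested. At 2-fold 2 were lower, EGR3 (-1.06) and NR4A1 (-1.15), and 0 higher, beside 2.6% of 18287 genes lower and 13.7% higher. At 1.5-fold 5 were lower and 0 higher, beside 10.2% and 17.3%. With TMM computed on protein-coding genes alone, an alternative chosen after seeing the data, the count was 0, since EGR3 moved to -0.90 and NR4A1 to -0.99.

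EGR1 was lower with shJMJD3 than with shUTX in both lines, at 24.0 against 53.6 CPM in CUTLL1 and 25.5 against 88.3 in CEM. The log2 ratios were -0.97 (-1.03 to -0.91) and -1.54 (-1.62 to -1.47). Across lines the ratio was -1.23 (SE 0.32, adjusted p = 0.546, edgeR), which did not pass. JUN went the other way in both, with 0.26 (0.20 to 0.32) and 0.85 (0.80 to 0.89), and did not pass either (0.54, SE 0.25, adjusted p = 0.622, edgeR).

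FOS was lower with shJMJD3 than with shUTX by -0.77 (-0.83 to -0.71) in CUTLL1 and -0.62 (-1.04 to -0.24) in CEM. JUNB was lower by -0.39 (-0.44 to -0.35) and -0.64 (-0.73 to -0.56), and across lines by -0.51 (SE 0.19, adjusted p = 0.608, edgeR). The lines parted for NR4A1 (-1.15 and 0.30), DUSP1 (-0.25 and 0.75) and IER2 (-0.57 and 0.09). In CEM 2 of 9 members were 2-fold lower, EGR1 and EGR3, and 0 higher, beside 12.8% and 11.7% of 16229 genes, and at 1.5-fold 4 were lower and 2 higher, beside 23.3% and 22.2%. No gene of 24003 passed across lines in edgeR, with 1945 at an unadjusted p under 0.05, so 0% were called, while DESeq2 called 286, none of them a member. The 3 pairs of hairpins share columns, so their ratios are not independent.

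The CUTLL1 ratios to shRenilla depended on which control column was used, and the members differed between the parts of that control. EGR1 stood at 31.4 CPM in the smaller column and 3.55 in the remainder, from 4532 and 403 counts, a log2 ratio of remainder to smaller column of -2.51 (-2.67 to -2.37). FOS stood at 26.6 and 2.90, a ratio of -2.56 (-2.73 to -2.40). JUN stood at 27.9 and 7.04, a ratio of -1.36 (-1.47 to -1.25). In the remainder 4 of the 10 members, EGR2 with these 3, were at least 2-fold lower and 0 higher, beside 6.17% of 18546 genes lower and 17.4% higher. Scaled to column totals, 7 of the 10 were lower by 2-fold or more and 0 higher, beside 23.8% and 13.9% of those genes.

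All 10 members had a lower value in the remainder, but the log2 ratios of JUNB, FOSB and EGR3 were -0.05, -0.13 and -0.21 with TMM scaling and -0.68, -0.75 and -0.82 with counts scaled to column totals. The summed CPM of the members was 223 in the smaller column, 87.0 in the remainder and 163 in the larger. The sources used here do not say which samples the remainder holds. Its small RNA content differed as given above, and the part of that in these ratios was not tested.

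With shJMJD3 in CUTLL1 the EGR1 ratio was 0.48 against the larger column, -0.01 against the smaller and 2.56 against the remainder. For FOS the 3 ratios were 0.61, 0.11 and 2.73. For JUN they were 0.95, 0.60 and 2.02, above 0 with each. NR4A1 was at -0.27, -0.46 and 0.17. The median of the members was 0.24, 0.01 and 0.75.

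With shUTX in CUTLL1 all 10 members stayed above 0 against each of the 3 control columns. Their medians were 0.88 against the larger, 0.52 against the smaller and 1.10 against the remainder. The share of all genes above 0 was not computed. Other lists moved with the control column too. In the same order the median of the T cell markers was 0.20, -0.07 and 0.30. That of the heat shock and handling stress genes was -0.30, -0.14 and -0.78. EGR1 was at 1.45, 0.81 and 3.40, and FOS at 1.38, 0.73 and 3.36. The columns nest, so these are not 3 independent checks. CEM had 1 control column.

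**Figure D4:**
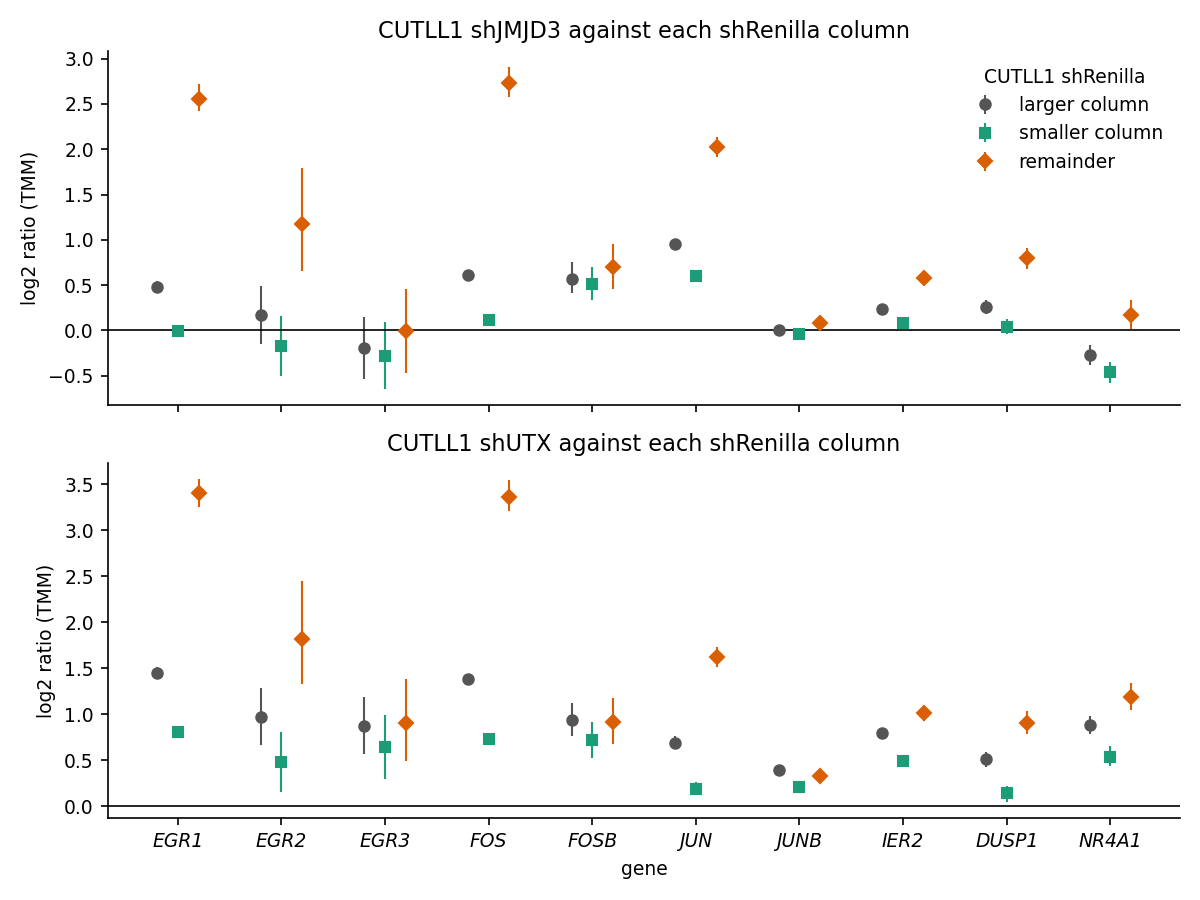
TMM-scaled log2 ratios of CUTLL1 shJMJD3 (top) and CUTLL1 shUTX (bottom) to the larger shRenilla column, the smaller one and the remainder between them, with bars for the 95% counting interval. For shJMJD3 the EGR1 and FOS points run from near 0 against the smaller column to 2.56 and 2.73 against the remainder, and for shUTX all points lie above 0.

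Genes around the members in the pathway were described from lists. With shUTX in CUTLL1 1 of 12 measured other immediate early factors was 2-fold higher, BHLHE40, a helix-loop-helix repressor, at 46.8 against 19.1 CPM (1.34, 1.27 to 1.40), and 0 were lower. Of all genes 0.693% were higher and 0.255% lower. Against the larger control column the BHLHE40 ratio was 2.08, and against the remainder 6.97. Of 13 factors measured, 1 was higher and 1 lower against the larger column, and 2 were higher and 2 lower against the remainder. The shares of all genes against these other columns were not computed. With shUTX in CEM 0 of 12 were 2-fold apart, beside 0.804% of all genes higher and 1.23% lower. With shJMJD3 in CEM 2 of 12 were higher and 2 lower, beside 11.8% and 13.4% of all genes. There BHLHE40 stood at 269 against 40.8 CPM (3.03), and CSRNP1, a nuclear protein induced by AXIN1, at 29.9 against 10.4 (1.83). On the lower side KLF2, a factor of T cell quiescence and trafficking, stood at 7.85 against 48.5 CPM (-2.31) and ATF3, a stress-induced CREB family factor, at 16.8 against 49.8 (-1.26). With shJMJD3 in CUTLL1 0 of 13 were 2-fold apart from the larger control column, beside 3.78% of all genes higher and 2.27% lower. Against the smaller column 1, FOSL1, was higher, and against the remainder 3 were higher and 1 lower.

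Among feedback inhibitors in CUTLL1 DUSP6, the phosphatase specific for ERK, had 57.1 CPM with shJMJD3 against 23.2 with shRenilla (larger column). With a log2 ratio of 1.45 DUSP6 was the only one of 25 at 2-fold, beside 3.78% of all genes higher and 2.27% lower. Against the smaller control column and the remainder its ratio was 1.05 and 2.82. DUSP6 was again the only one of 25 at 2-fold against the smaller column, but 1 of 10 higher against the remainder. In CEM 2 of 24 were higher and 5 lower with shJMJD3, beside 11.8% and 13.4% of all genes. ZFP36L2, which promotes decay of AU-rich messenger RNAs, had 954 against 353 CPM (1.75), and SPRY2, an inhibitor of receptor tyrosine kinase signalling, 1.11 against 8.93 (-2.68). With shUTX 0 genes of this list were 2-fold apart in CEM, or in CUTLL1 against the smaller control column. The shares of all genes there are those given above for shUTX. Against the larger column 3 of 25 were higher, SPRY1, CD69 and ZFP36L2, and against the remainder 13, with 0 lower. The shares of all genes against these other control columns were not computed.

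Upstream of the members, 0 of 32 measured kinases and transcription factors were 2-fold apart with shJMJD3 in CUTLL1, beside 3.78% of all genes higher and 2.27% lower. In CEM 1 was higher and 6 lower, beside 11.8% and 13.4% of all genes. MAPK14, the p38 alpha kinase, stood at 194 against 103 CPM there (1.22), and the SRF partner ELK3 at 5.36 against 23.3 (-1.80). Of the EGR, NAB and NFAT linked T cell genes, 1 was higher and 2 lower among 12 in CEM with shJMJD3, beside the same shares. These were CD5 (1.36), a brake on T cell receptor signalling, the ubiquitin ligase CBLB (-1.12) and PDCD1 (-1.02), the PD-1 receptor. With shUTX 0 genes of either list were 2-fold apart in CEM, or in CUTLL1 against the smaller control column. The shares of all genes are those given above for shUTX. Against the larger column 1 of the 32 upstream genes was lower, and the share of all genes there was not computed.

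The genes nearest to 3 members over the 4 ratios to shRenilla were found among 11303 genes with at least 200 counts in every column, as a description over 4 values that share control columns. KIAA1107, the cyclin CCNE1 and the JNK phosphatase DUSP8 were nearest to EGR1, at root mean square distances of 0.28, 0.30 and 0.31 log2 units, and JUNB was its nearest fellow member at 0.51. WDR74 lay 0.16 from FOS and the row named U2 0.17. APOBEC3D, a cytidine deaminase, lay 0.08 from JUN, with CHML at 0.11 and TBX19 at 0.12, and DUSP1 was the nearest fellow member at 0.35. For FOS the nearest fellow member was EGR1 at 0.41.

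In the authors' deposited tables, DEGseq p-values under 0.001 were given to 6 of 10 members for shJMJD3 against shRenilla in CUTLL1 and to 10 of 10 in CEM, beside 40.2% and 54.4% of the genes with a p-value. For shUTX against shRenilla the deposited tables gave 8 of 10 and 4 of 10, beside 27.4% and 25.8%. For shJMJD3 against shUTX they gave 9 of 10 and 7 of 10, beside 51.5% and 53%. Those p-values compare the reads of the columns at hand, not the conditions.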

How the data were processed

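The authors deposited 6 tables, 1 per line and pair of hairpins, with raw read counts per gene, per the file headers. The log2 ratios and p-values deposited by the authors came from DEGseq, per the labels' protocols. RNA was selected with oligo-dT beads or Ribominus, followed by strand-marking dUTP library construction and 50-nt single-end sequencing, per the labels' protocols. CASAVA, TopHat and hg19 are listed in the submitters' processing notes. How reads were counted, on which annotation and whether by strand, the sources used here do not say, so reads of overlapping or antisense genes cannot be told apart. A column was read as 1 pooled value for a hairpin in a line.

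CPM was scaled to column totals. Log2 ratios used edgeR 4.0.16 TMM factors over 6 columns and a prior count of 2, with exact binomial 95% intervals that cover counting error only. Apart from the prior count, scaling to totals shifts shJMJD3 to shRenilla ratios by -0.15 (CUTLL1) and -0.31 (CEM). The shift is -0.04 in either line for shUTX to shRenilla, and -0.19 and -0.25 for shJMJD3 to shUTX. With the prior count, ratios resting on few counts shift less, such as EGR3 in CEM with shJMJD3 against shRenilla, from -3.47 to -3.70. Genes with at least 50 counts in either column were counted at 2-fold. Unless stated, CUTLL1 shJMJD3 was set against the larger and CUTLL1 shUTX against the smaller control column. The test across lines was the quasi-likelihood F test of edgeR after filterByExpr, with line and hairpin as terms and Benjamini-Hochberg adjustment over all genes tested, called under 0.05. The lines are the replicates, so p-values measure the spread between 2 lines. The SE is the absolute log2 ratio over the square root of F. DESeq2 1.42.0 was an alternative. Exon lengths came from GENCODE 29, which matched 48932 of 55075 genes. The edgeR script was tested on simulated data.

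The members, lists and tests were chosen with earlier results of these data known. All members were named, with KDM6B and KDM6A, up to 2 higher and 2 lower genes of each other list at 2-fold against shRenilla, and the 3 genes nearest to EGR1, FOS and JUN. Not every gene named by this rule is reported here. The other lists were 5 of pathway and stress genes and 6 of cell type markers.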

Additional observations from a re-analysis of the deposited data

Results flagged for a closer look

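Members that lay on opposite sides of 0 in the 2 lines, with both counting intervals clear of 0 and at least 50 counts in either column of both pairs, made up 7 of 30 pairs of ratios. The share of all genes that meet this rule was not computed. The difference between the lines was not tested in any of the 7 pairs, because each line has 1 value. For shJMJD3 against shRenilla these were EGR1 (0.48 in CUTLL1 and -0.66 in CEM) and FOS (0.61 and -0.53). For shUTX against shRenilla they were JUN (0.19 and -0.13) and NR4A1 (0.54 and -0.30). For shJMJD3 against shUTX they were IER2 (-0.57 and 0.09), DUSP1 (-0.25 and 0.75) and NR4A1 (-1.15 and 0.30). Against the smaller CUTLL1 control column EGR1 had a ratio of -0.01 with shJMJD3, no longer opposite to CEM. The CEM ratio of IER2 became -0.15 with counts scaled to column totals, on the same side as CUTLL1.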

How the results depend on the processing

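No paired analysis was possible because the columns carry no replicate numbers. Leaving out single replicates was not run for the same reason. With counts scaled to column totals the members' median became 0.09 for shJMJD3 against shRenilla in CUTLL1, -0.65 in CEM and -0.85 for shJMJD3 against shUTX in CUTLL1. Against the smaller control column the CUTLL1 shJMJD3 median became 0.01, and against the larger the CUTLL1 shUTX median became 0.88 with 2 members 2-fold higher. Against the remainder these medians were 0.75 and 1.10, with 4 and 6 members 2-fold higher. The shares of all genes at 2-fold with these other control columns were not computed. At 1.5-fold the counts were 2 higher for CUTLL1 shJMJD3, 2 higher and 2 lower for CEM shJMJD3, 4 higher for CUTLL1 shUTX and 1 higher for CEM shUTX, each against shRenilla. For shJMJD3 against shUTX they were 5 lower in CUTLL1, and 2 higher and 4 lower in CEM. Without the count minimum 2 members were 2-fold lower with shJMJD3 in CEM. For shJMJD3 against shUTX in CUTLL1, DESeq2 size factors left 1 member 2-fold lower and TMM on protein-coding genes, chosen after seeing the data, left 0. Across lines DESeq2 called 110 genes for shJMJD3 against shRenilla, 4 for shUTX against shRenilla and 286 for shJMJD3 against shUTX, where scaling to totals called 6 and no filter beyond 1 count 55. For shUTX against shRenilla the fit of only the 4 columns compared called 16 genes and 1 member, EGR1. The cause of these shifts was not tested. Among protein-coding genes alone, an alternative background also chosen after seeing the data, 0.659% were 2-fold higher with shUTX in CUTLL1 and 6.37% with shJMJD3 against shUTX there, beside 0.693% and 13.7% of all genes. Of the values for single genes, 489 stayed within their limits or on their side of the threshold, 73 moved, 5 newly passed and 3 no longer passed. The low counts of EGR2 and EGR3 in CEM limit what can be said of them.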
